A study of Mus musculus with 14 samples.

Results

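The proteasome subunit genes described here are the rows of the count table whose symbol begins with Psma, Psmb, Psmc or Psmd and a digit, without the immune subunits Psmb8, Psmb9 and Psmb10 and without pseudogenes. The rule took 37 of 24054 rows, and all 37 passed the filter on low counts. Of these, 16 encode subunits of the core particle, 17 encode subunits of the regulatory particle and 3 encode chaperones that assemble the regulatory particle. The remaining gene, Psmc3ip, is taken by its letters only, since it encodes a protein of meiotic recombination. Within the core, Psma8 is the subunit of the testis and Psmb11 that of the thymus. Of the genes taken, this leaves 14 core and 17 regulatory genes of the constitutive proteasome, 31 in all. Sem1, a small lid subunit whose symbol has other letters, is not among the 17 and is described with the related genes.

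The proteasome is the main protease of the cytosol and nucleus. Its core particle stacks rings of alpha subunits, which form the gate, on rings of beta subunits, of which Psmb5, Psmb6 and Psmb7 carry the proteolytic sites. The regulatory particle caps the core, where ATPases (Psmc) unfold the substrate and non-ATPase subunits (Psmd) bind ubiquitin, remove it and hold the particle together. In heart muscle the proteasome clears worn sarcomere proteins, and its genes are under the control of the transcription factor Nfe2l1.

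Messenger RNA of the left ventricle of C56Bl6 mice (the strain as the labels spell it) was sequenced in 14 libraries. The 5 control libraries are from mice on a standard diet for 10 weeks, and no virus is named for them. The other 9 are from mice on High-Fat + L-NAME, a diet with a blocker of nitric oxide synthases that is used to model heart failure with preserved ejection fraction (HFpEF), for which the labels give 6 weeks on the diet and 4 weeks after an adeno-associated virus (AAV). The AAV carried a scrambled hairpin in the 4 HFpEF-scr libraries and a hairpin against Foxo1 in the 5 HFpEF-FoxO1-sh libraries, so HFpEF-scr and control differ in diet, virus and labelled time at once. The labels do not say whether the 4 weeks follow the 6 weeks, so the total time may be the same as the 10 weeks of control. The labels name no promoter of the hairpin and leave unsaid whether each replicate is its own animal. The p-values therefore rest on library-to-library spread, which may be technical. Library numbers run in blocks by group (1 to 5, then 6 and 8 to 10, then 11 to 15), and an effect of the order of processing cannot be told apart from the group.

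Levels are in CPM, read counts scaled by the TMM library size. Differences were tested with edgeR's quasi-likelihood test, and a gene is called where its p, adjusted by Benjamini-Hochberg over all 13588 genes tested, is under 0.05. Foxo1, the target of the hairpin, was at 44.2, 42.2, 42.4, 47.0 and 44.4 CPM in controls 1 to 5, 44.8, 48.3, 41.0 and 40.1 CPM in HFpEF-scr 1 to 4 and 41.5, 46.0, 39.3, 43.8 and 41.4 CPM in HFpEF-FoxO1-sh 1 to 5. The 3 groups overlapped. The difference of HFpEF-FoxO1-sh from HFpEF-scr was -2.64% (95% interval -10.9% to 6.42%, -0.04 ± 0.06 SE on the log2 scale, adjusted p = 0.780), so the transcript level did not set apart the libraries labelled as knockdown, and they are named by that label throughout. The difference of HFpEF-scr from control was -1.12% (interval -9.52% to 8.04%, adjusted p = 0.904). Why no difference in Foxo1 RNA was detected was not tested.

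Totals ran from 13.2 M to 21.2 M counts per library. The 8 ventricular muscle markers were detected in every library, with a median summed level of 102760 CPM in control, 91057.5 CPM in HFpEF-scr and 100316 CPM in HFpEF-FoxO1-sh. The median sum of 8 fibroblast markers was 951 CPM, 1072 CPM and 841 CPM in the same order, and that of 6 macrophage markers 124 CPM, 115 CPM and 87.8 CPM. HFpEF-scr 1 was high in genes of red cells, with a sum of 3392 CPM against a median of 599.8 CPM over the 4 HFpEF-scr libraries. In bulk tissue, fewer cells of a type and less RNA per cell cannot be told apart.

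Promoter letters are shown first, because Nfe2l1 binds antioxidant response elements and moved in these libraries. RefSeq windows of 300 bases on GRCm38.p6, from 250 before to 50 after the start of a gene, were at hand for 30 of the 37 genes. Letters were searched on both strands, and a match is a description of letters, not a binding site. The core of the antioxidant response element, TGACNNNGC, was in the windows of 5 of the 30 genes (16.7%), beside 14.0% of all 27025 genes with a window. This share among the members was near that of all genes. The excerpts of up to 41 bases read 5′ to 3′ along the gene, end at the start of the gene where they reach it, and have the match in capitals. Those of Psmb5, Psmb6 and Psmd9 are on the strand of the gene and are printed, and those of Psmc6 and Psmd12 are on the opposite strand.
Psmb5 (chr14:54618018-54618058, minus strand): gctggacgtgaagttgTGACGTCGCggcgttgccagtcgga
Psmb6 (chr11:70525332-70525356, plus strand): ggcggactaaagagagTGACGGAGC
Psmd9 (chr5:123228143-123228183, plus strand): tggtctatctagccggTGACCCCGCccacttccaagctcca
In edgeR none of these 5 genes was called in any comparison. The CCAAT box was in the windows of 13 of 30 genes (43.3%), beside 41.1% of all genes, so its share among the members was near that of all promoters. Of the 10 genes called against control, 7 have a window. The box was there in 4 of them (Psma1, Psma2, Psma3 and Psmc2) and not in the other 3 (Psma4, Psma5 and Psmd1), and the excerpts show the match nearest upstream of the start on the strand of the gene.
Psma1 (chr7:114276194-114276230, minus strand): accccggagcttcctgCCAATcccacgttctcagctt
Psma2 (chr13:14613172-14613208, plus strand): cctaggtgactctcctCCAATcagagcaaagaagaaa
Psma3 (chr12:70974468-70974504, plus strand): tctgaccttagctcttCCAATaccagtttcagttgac
Psmc2 (chr5:21785231-21785267, plus strand): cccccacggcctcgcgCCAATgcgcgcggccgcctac
The FoxO motif, TGTTTAC, was in none of the 30 windows, beside 4.05% of all genes, which says only that these letters are not in these 300 bases.

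Levels were compared per kilobase of the longest coding transcript, in the controls. The 31 constitutive subunit genes spanned a 6.21-fold range, from 21.9 CPM per kb for Psma2 to 136.0 CPM per kb for Psmb6. The 3 catalytic subunits were among the 5 highest genes, with 136 CPM per kb for Psmb6, 110.0 for Psmb7 and 98.7 for Psmb5. The beta ring had a median of 98.7 CPM per kb over 7 genes, the alpha ring 61.7 over 7, the ATPase ring 61.8 over 6 and the non-ATPase subunits 48.0 over 11. Psma2, Psma3 and Psma5 were the 3 lowest of the 31. This rank and the width of the range rest on the transcript taken as the length, which has 2911 bases for Psma2 and 2846 for Psma3, against 1042 to 1239 for the other 5 alpha genes. Not divided by length, Psma2 was at 63.8 CPM and Psma3 at 70.0 CPM in control, above Psmb3 at 40.9 CPM and Psmd14 at 45.3 CPM. The chaperones were lower, with 3.87 CPM per kb for Psmd5, 5.25 for Psmd10 and 7.57 for Psmd9. Replicates lay close together, and the median coefficient of variation over the 31 genes was 3.53% in control, 4.24% in HFpEF-scr and 4.11% in HFpEF-FoxO1-sh.

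**Figure D1:**
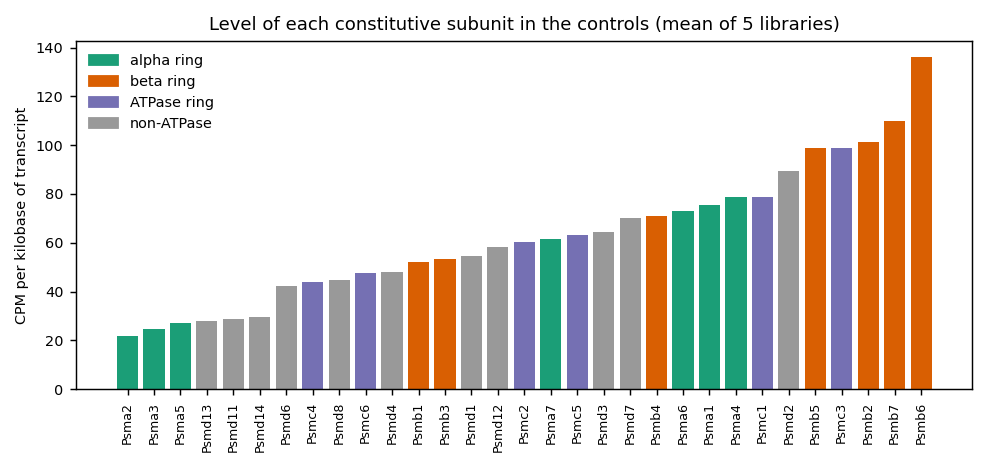
Bars give the mean CPM per kilobase of transcript over the 5 control libraries for each of the 31 constitutive subunit genes, coloured by ring or group. The bars run from 21.9 for Psma2 to 136.0 for Psmb6, and the 5 highest are Psmb6, Psmb7, Psmb2, Psmc3 and Psmb5.

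HFpEF-scr was compared with control, which asks whether the diet model with the scrambled virus altered the subunit genes. The differences of the 31 constitutive genes ran from -7.86% (Psmb2) to 11.0% (Psmd1). At an unadjusted p under 0.05 there were 5 of 37 members, beside 23.6% of all genes. Psma1, an alpha subunit, was the 1 gene called, 10.1% higher, and no member fell. Over all genes tested 3.66% rose and 3.70% fell in this comparison, so 1 of 37 members is near that background.

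Psma1 was at 89.9, 94.7, 89.0, 86.9 and 91.8 CPM in controls 1 to 5, 100.1, 96.9, 105 and 96.9 CPM in HFpEF-scr 1 to 4 and 98.1, 99.6, 99.9, 99.5 and 96.3 CPM in HFpEF-FoxO1-sh 1 to 5. Every HFpEF-scr library was above every control, and HFpEF-FoxO1-sh overlapped HFpEF-scr. The difference of HFpEF-scr from control was 10.1% (95% interval 4.04% to 16.6%, 0.14 ± 0.04 SE on the log2 scale, adjusted p = 0.0406). The call was lost in 8 of 9 fits that left out 1 library, with an adjusted p of up to 0.114 without HFpEF-scr 3. Psma1 was the only member with every HFpEF-scr library higher, beside 4.29% of all genes.

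Psmb2, a beta subunit without a proteolytic site, was the only member with every HFpEF-scr library lower, beside 4.64% of all genes. It was at 88.8, 87.2, 86.5, 83.5 and 88.5 CPM in controls 1 to 5, 79.9, 76.5, 82.3 and 81.6 CPM in HFpEF-scr 1 to 4 and 90.6, 89.3, 79.8, 85.2 and 74.9 CPM in HFpEF-FoxO1-sh 1 to 5. The difference of HFpEF-scr from control was -7.86% (95% interval -14.8% to -0.404%, -0.12 ± 0.05 SE on the log2 scale, adjusted p = 0.188), which is not called. HFpEF-FoxO1-sh overlapped both other groups.

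Psmd1, the large scaffold of the base of the regulatory particle, was at 166, 176, 169.7, 164 and 178 CPM in controls 1 to 5, 174, 199.7, 194 and 189 CPM in HFpEF-scr 1 to 4 and 201, 197, 186, 186 and 197 CPM in HFpEF-FoxO1-sh 1 to 5. In HFpEF-scr, 3 of 4 libraries were above every control and HFpEF-scr 1 was not. The difference was 11.0% (95% interval 3.86% to 18.6%, 0.15 ± 0.05 SE on the log2 scale, adjusted p = 0.0538), just short of the threshold, and without HFpEF-scr 1 it was called (0.19 on the log2 scale, adjusted p = 0.0160). The intervals of the 31 constitutive genes reached from -14.8% (Psmb2) to 18.6% (Psmd1).

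The signs were mixed, with 15 of 37 members above 0 beside 50.4% of all genes. The alpha ring had a median change of 7.38% over 7 genes and the beta ring of -3.82% over 7, beside 0.113% over all genes tested. Psma2, Psma3, Psma4 and Psma5 differed by 7.66%, 7.38%, 7.14% and 8.14%, and none of the 4 passed the test. The ATPase ring had a median of -0.688% and the non-ATPase subunits of -0.915%. Markers of ventricular muscle moved in the same libraries, where 3 of 8 fell (Myh6, Myl2 and Myl3), with a list median of -10.0% (-0.15 on the log2 scale). Of the markers of other cell types, 3 of 6 of smooth muscle and pericytes rose (Acta2, Tagln and Rgs5, list median 25.1%). So did 2 of 8 of fibroblasts (Lum and Pdgfra, list median 11.3%). Of the 6 of endothelium 1 rose (Pecam1), with 3 above 0, 3 below 0 and a list median of 5.72%. The part of these markers in the subunit values was not tested.

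The catalytic subunits did not pass the test in HFpEF-scr. Psmb5, with the chymotrypsin-like site, was at 91.1, 90.4, 90.6, 80.2 and 91.5 CPM in controls 1 to 5, 86.8, 80.4, 85.0 and 79.2 CPM in HFpEF-scr 1 to 4 and 90.5, 88.9, 90.1, 80.7 and 85.7 CPM in HFpEF-FoxO1-sh 1 to 5. The groups overlapped, and control 4 lay below the other controls. HFpEF-scr differed from control by -6.63% (interval -13.3% to 0.60%, adjusted p = 0.252), HFpEF-FoxO1-sh from HFpEF-scr by 5.18% (interval -2.38% to 13.3%, adjusted p = 0.458) and HFpEF-FoxO1-sh from control by -1.79% (interval -8.44% to 5.35%, adjusted p = 0.780). In GENCODE vM21 12.1% of its exon bases are shared with another gene, and the counting strand is not given in the sources used here.

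Psmb6, with the caspase-like site, was at 108, 106, 109.9, 108 and 111 CPM in controls 1 to 5, 104, 108, 103 and 108 CPM in HFpEF-scr 1 to 4 and 114, 119.9, 114, 113 and 114 CPM in HFpEF-FoxO1-sh 1 to 5. All 5 HFpEF-FoxO1-sh libraries were above all 9 others. The differences, in the same order of comparisons, were -2.54% (interval -7.55% to 2.73%, adjusted p = 0.577), 8.64% (interval 3.05% to 14.5%, adjusted p = 0.0714) and 5.88% (interval 0.754% to 11.3%, adjusted p = 0.123). None passed the edgeR threshold, and DESeq2 called the second (adjusted p = 0.0385).

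Psmb7, with the trypsin-like site, was at 133, 128, 129, 123 and 126 CPM in controls 1 to 5, 121, 133, 132 and 131 CPM in HFpEF-scr 1 to 4 and 135, 142, 134, 141 and 143 CPM in HFpEF-FoxO1-sh 1 to 5. Every HFpEF-FoxO1-sh library was above every other library, and HFpEF-scr 1 was the lowest of its group. The differences were 1.35% (interval -4.48% to 7.53%, adjusted p = 0.821), 7.45% (interval 1.27% to 14.0%, adjusted p = 0.157) and 8.90% (interval 2.99% to 15.1%, adjusted p = 0.0427). The last was called, and it was lost in 8 of 10 fits without 1 library (adjusted p up to 0.0923, without HFpEF-FoxO1-sh 2). This call was also lost without the filter on low counts and with the replicate number as a block.

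**Figure D2:**
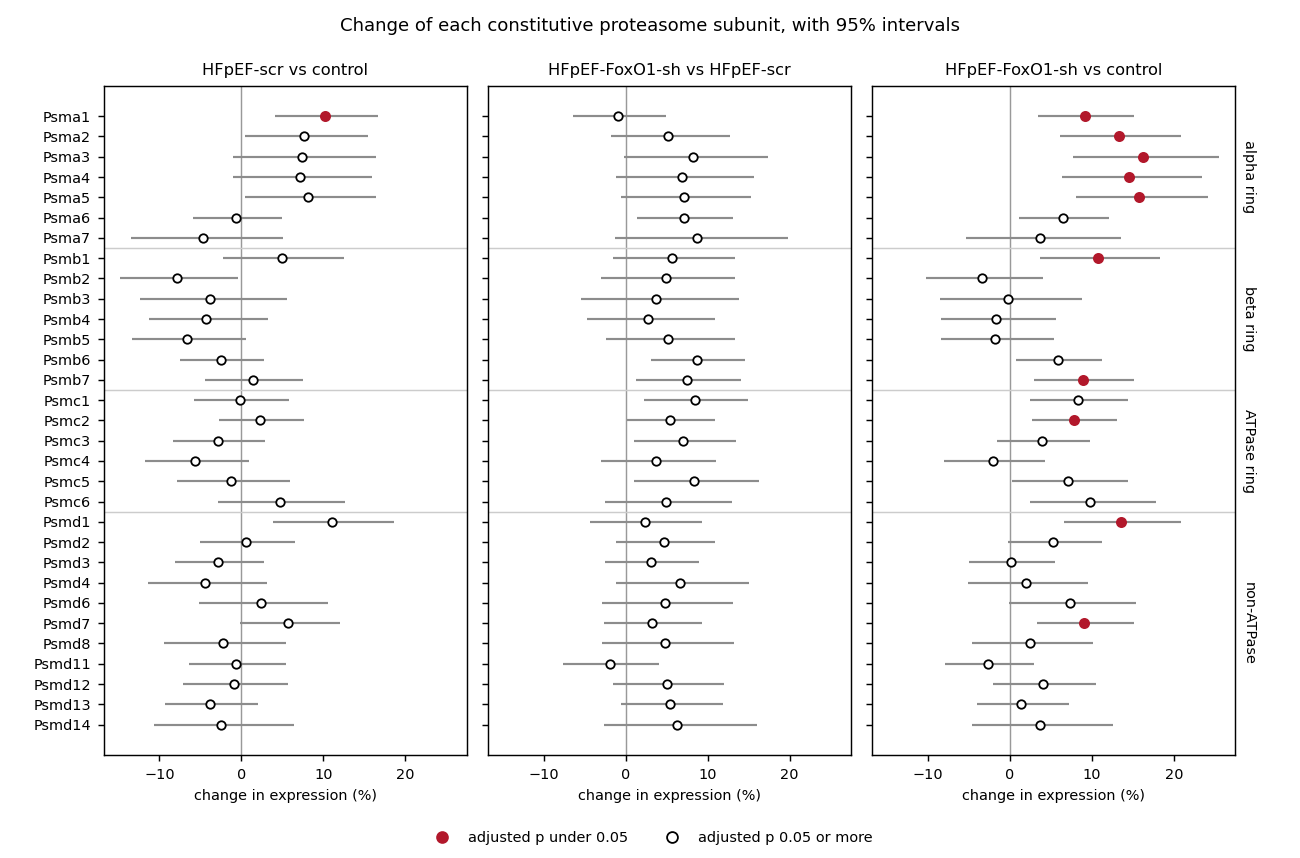
Points give the difference in expression in percent for each of the 31 constitutive subunit genes and bars its 95% interval, with 1 panel per comparison and red points for an adjusted p under 0.05. The left panel has 1 red point (Psma1), the middle panel none and the right panel 10, of which 5 are in the alpha ring.

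HFpEF-FoxO1-sh was compared with HFpEF-scr, which differ by the labels in the hairpin alone. No member was called in edgeR, beside 1.32% of all genes that rose and 2.26% that fell. At an unadjusted p under 0.05 there were 10 of 37 members beside 19.7% of all genes, and DESeq2 called 1 member and limma voom 0. The values leaned upwards by a few percent, with 34 of 37 members above 0 beside 51.3% of all genes, and 7 of 37 higher without overlap beside 4.11%. None was lower without overlap, beside 4.23%. Genes of 1 complex in the same libraries are not independent, so these counts describe the libraries.

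The median difference was 6.25% over the 14 core genes and 4.94% over the 17 regulatory genes, beside 0.307% over all genes tested. The beta ring (5.18%), the alpha ring (7.07%), the ATPase ring (6.20%) and the non-ATPase subunits (4.79%) had medians of the same sign. HFpEF-scr 1 stood apart from its group over all genes, with a chi-square per degree of freedom of 17.0 to 19.3 against the other 3 libraries, which had 9.33 to 11.5 among themselves. It also had the lowest mean log2 CPM of the regulatory particle relative to control, -0.05 against -0.00 to 0.03 in the other 3. Without it the median difference was 0.05 on the log2 scale over the regulatory genes, from 0.07 with it, and 0.09 over the core genes both with and without it. The 31 intervals reached from -7.64% (Psmd11) to 19.8% (Psma7). In the same libraries 3 of 8 fibroblast markers (Col1a1, Col1a2 and Col3a1), 2 of 6 macrophage markers and 1 of 6 endothelial markers fell. Of the 8 ventricular muscle markers 0 were called, 7 were above 0 and their median was 5.75% (0.08 on the log2 scale). The part of these markers in the subunit values was not tested.

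Psmc1, an ATPase of the ring, had the largest value of the regulatory particle in this comparison. It was at 122, 123, 129, 123 and 129 CPM in controls 1 to 5, 118, 126, 128 and 128 CPM in HFpEF-scr 1 to 4 and 133, 131, 137, 140.2 and 138 CPM in HFpEF-FoxO1-sh 1 to 5. All HFpEF-FoxO1-sh libraries were above all others, and the difference was 8.42% (95% interval 2.28% to 14.9%, 0.12 ± 0.04 SE on the log2 scale, adjusted p = 0.105). Against control it was 8.28% (interval 2.49% to 14.4%, adjusted p = 0.0539), also not called.

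Psmd11, a lid subunit known to hold the core and regulatory particles together, was the lowest of the regulatory particle. It was at 81.1, 84.7, 81.6, 79.4 and 84.3 CPM in controls 1 to 5, 83.1, 82.6, 83.0 and 77.7 CPM in HFpEF-scr 1 to 4 and 80.3, 80.7, 75.4, 82.2 and 81.5 CPM in HFpEF-FoxO1-sh 1 to 5. The groups overlapped, HFpEF-scr 4 and HFpEF-FoxO1-sh 3 were the low libraries, and the difference was -1.95% (95% interval -7.64% to 4.08%, -0.03 ± 0.04 SE on the log2 scale, adjusted p = 0.754). Psmc4, another ATPase, was at 67.3, 64.2, 64.3, 58.9 and 61.8 CPM in controls 1 to 5, 59.2, 59.7, 59.9 and 60.3 CPM in HFpEF-scr 1 to 4 and 63.9, 62.0, 62.6, 64.1 and 57.5 CPM in HFpEF-FoxO1-sh 1 to 5. It had the lowest value of the regulatory particle in HFpEF-scr, -5.61% (interval -11.7% to 0.927%, adjusted p = 0.287), and -2.08% (interval -8.06% to 4.29%, adjusted p = 0.707) in HFpEF-FoxO1-sh against control.

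HFpEF-FoxO1-sh was compared with control, which differ in diet, virus, hairpin and labelled time. Here 10 of 37 members rose and none fell, beside 6.68% of all genes that rose and 6.28% that fell. The 10 were Psma1, Psma2, Psma3, Psma4 and Psma5 of the alpha ring, Psmb1 and Psmb7 of the beta ring, the ATPase Psmc2, and Psmd1 and Psmd7 of the non-ATPase subunits. They rose by 7.77% to 16.2%. All 3 comparisons share groups of libraries, so their values are set side by side and not counted as separate evidence.

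**Figure D3:**
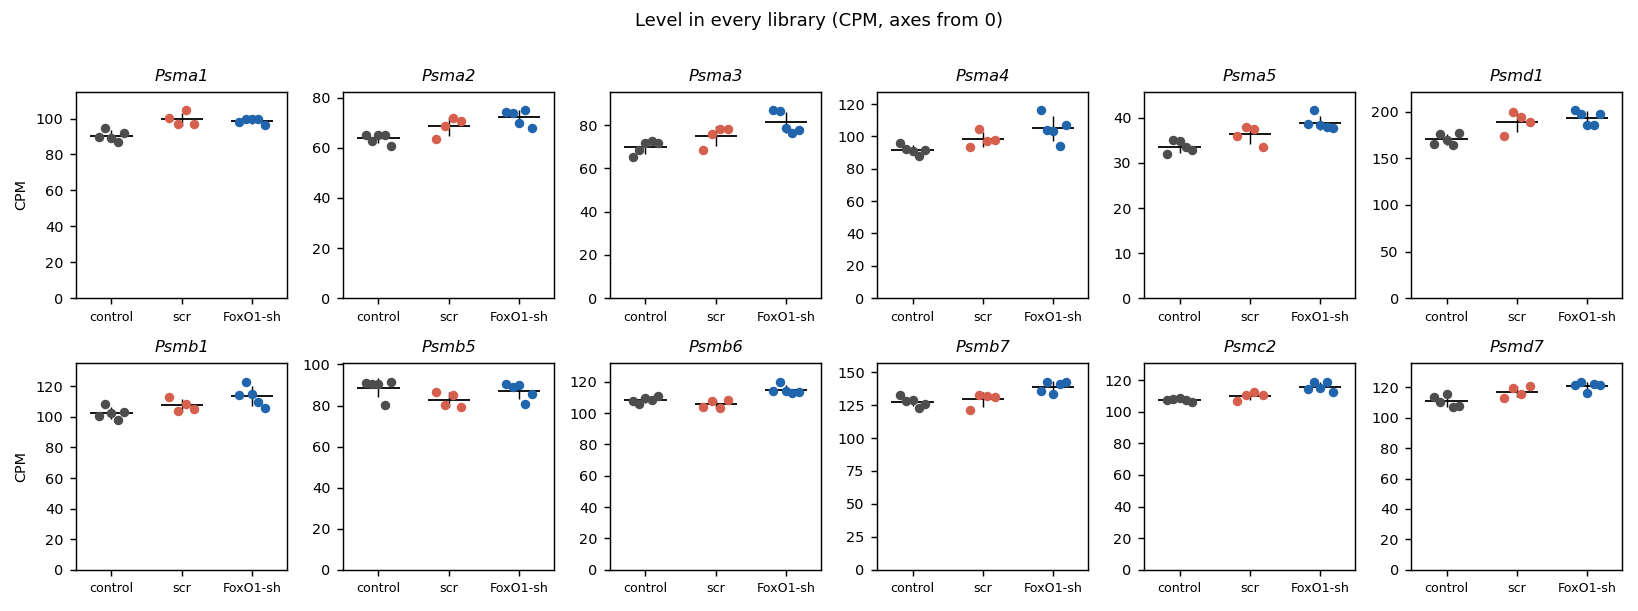
Points give CPM in every library for the 10 called genes and for the catalytic subunits Psmb5 and Psmb6, with lines for the group mean and 1 SD and axes from 0. In Psma3 the HFpEF-FoxO1-sh libraries lie between 76.6 and 86.9 CPM and the controls between 65.2 and 72.9 CPM, while Psmb5 overlaps in all groups.

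Psma3 had the largest rise among the constitutive genes. It was at 65.2, 68.6, 71.7, 72.9 and 71.6 CPM in controls 1 to 5, 68.4, 75.8, 78.2 and 78.1 CPM in HFpEF-scr 1 to 4 and 86.9, 86.6, 78.6, 76.6 and 77.9 CPM in HFpEF-FoxO1-sh 1 to 5. Every HFpEF-FoxO1-sh library was above every control, and HFpEF-scr lay across both, with HFpEF-scr 1 at the control level. HFpEF-FoxO1-sh differed from control by 16.2% (95% interval 7.64% to 25.4%, 0.22 ± 0.05 SE on the log2 scale, adjusted p = 0.0126). The gene lies at chromosome 12, 70974621 to 70996347, plus strand (GRCm38).

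Psma5 was at 32.0, 35.0, 34.8, 33.5 and 32.8 CPM in controls 1 to 5, 36.0, 38.0, 37.6 and 33.6 CPM in HFpEF-scr 1 to 4 and 38.6, 41.7, 38.4, 38.1 and 37.9 CPM in HFpEF-FoxO1-sh 1 to 5. All 5 HFpEF-FoxO1-sh libraries exceeded all controls, with HFpEF-FoxO1-sh 2 the highest. The difference was 15.8% (95% interval 8.03% to 24.1%, 0.21 ± 0.05 SE on the log2 scale, adjusted p = 0.00807). It lies at chromosome 3, 108256926 to 108279974, plus strand, and shares 4.54% of its exon bases with another gene.

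Psma4, the subunit whose tail closes the gate of the core, was at 95.6, 92.2, 91.2, 87.6 and 91.5 CPM in controls 1 to 5, 93.2, 105, 97.4 and 97.6 CPM in HFpEF-scr 1 to 4 and 116, 104, 103, 94.3 and 107 CPM in HFpEF-FoxO1-sh 1 to 5. HFpEF-FoxO1-sh 4 was below control 1, so the groups overlapped, and HFpEF-FoxO1-sh 1 was the highest library. The difference was 14.5% (95% interval 6.32% to 23.4%, 0.20 ± 0.05 SE on the log2 scale, adjusted p = 0.0186), and without HFpEF-FoxO1-sh 1 it was no longer called (adjusted p = 0.0529). It lies at chromosome 9, 54950790 to 54958030, plus strand, and shares 4.81% of its exon bases with another gene.

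Psma2 was at 65.1, 62.8, 65.0, 65.2 and 60.7 CPM in controls 1 to 5, 63.3, 68.7, 72.0 and 70.6 CPM in HFpEF-scr 1 to 4 and 74.5, 73.7, 70.0, 75.0 and 68.1 CPM in HFpEF-FoxO1-sh 1 to 5. Every HFpEF-FoxO1-sh library was above every control, and HFpEF-scr 1 was again at the control level. The difference was 13.3% (95% interval 6.11% to 20.9%, 0.18 ± 0.04 SE on the log2 scale, adjusted p = 0.0149). It lies at chromosome 13, 14613240 to 14674236, plus strand.

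Psma1 in HFpEF-FoxO1-sh, with the values given above, differed from control by 9.11% (95% interval 3.38% to 15.1%, 0.13 ± 0.04 SE on the log2 scale, adjusted p = 0.0336). From HFpEF-scr it differed by -0.939% (interval -6.44% to 4.88%, adjusted p = 0.890), the lowest value of the constitutive core in that comparison. The remaining alpha genes were not called, Psma6 with 6.45% (adjusted p = 0.102) and Psma7 with 3.70% (adjusted p = 0.638). The alpha ring thus had 5 of 7 genes called and a median of 13.3%, beside -0.210% over all genes tested.

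In the beta ring 2 of 7 genes were called, with a median of -0.245%. Psmb1, which carries no proteolytic site, was at 100.5, 109, 102, 98.2 and 103 CPM in controls 1 to 5, 113, 104, 108 and 105 CPM in HFpEF-scr 1 to 4 and 115, 123, 115, 109.7 and 106 CPM in HFpEF-FoxO1-sh 1 to 5. HFpEF-FoxO1-sh 5 was below control 2, and the difference was 10.8% (95% interval 3.68% to 18.3%, 0.15 ± 0.05 SE on the log2 scale, adjusted p = 0.0404). Psmb2, Psmb3 and Psmb4 differed by -3.36%, -0.245% and -1.67%, with adjusted p of 0.571, 0.979 and 0.798. Whether the rings differ in their change was not tested.

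In the regulatory particle 3 of 17 genes were called, with a median of 4.02%. Psmd1, with the values given above, differed from control by 13.5% (95% interval 6.64% to 20.9%, 0.18 ± 0.04 SE on the log2 scale, adjusted p = 0.0105), and its groups did not overlap. It lies at chromosome 1, 86064387 to 86139151, plus strand, and shares 7.61% of its exon bases with 2 other genes. Psmd7, the partner of the deubiquitinase Psmd14 in the lid, was at 114, 110.1, 116, 107 and 108 CPM in controls 1 to 5, 113, 119.5, 115 and 121 CPM in HFpEF-scr 1 to 4 and 122, 124, 116, 122 and 122 CPM in HFpEF-FoxO1-sh 1 to 5. All HFpEF-FoxO1-sh libraries were above all controls, and the difference was 9.07% (95% interval 3.29% to 15.2%, 0.13 ± 0.04 SE on the log2 scale, adjusted p = 0.0357). Psmd14 itself differed by 3.61% (interval -4.60% to 12.5%, adjusted p = 0.609).

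Psmc2, an ATPase of the ring, was at 107, 108, 109, 107 and 106 CPM in controls 1 to 5, 107, 110.3, 113 and 110.3 CPM in HFpEF-scr 1 to 4 and 114, 119, 115, 119 and 113 CPM in HFpEF-FoxO1-sh 1 to 5. The controls lay within a narrow range, every HFpEF-FoxO1-sh library was above every other library, and the difference was 7.77% (95% interval 2.75% to 13.0%, 0.11 ± 0.03 SE on the log2 scale, adjusted p = 0.0383). The ubiquitin receptor Psmd4 differed by 1.94% (interval -5.07% to 9.46%, adjusted p = 0.767) and the scaffold Psmd2, which also binds ubiquitin-like domains, by 5.28% (interval -0.296% to 11.2%, adjusted p = 0.211). Psmc3, Psmc5 and Psmc6 differed by 3.93%, 7.04% and 9.81%, and none of the 3 was called. The lid genes Psmd3, Psmd6, Psmd8, Psmd12 and Psmd13 lay between 0.148% and 7.33% and were not called. Psmd11, also of the lid, differed by -2.64% (interval -7.96% to 2.99%, adjusted p = 0.565), the lowest value of the regulatory particle in this comparison.

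Leaving out any 1 library kept the calls of Psma2, Psma3, Psma5 and Psmd1, with adjusted p of at most 0.0407, 0.0385, 0.0236 and 0.0328. The calls of Psma1, Psmb1, Psmc2 and Psmd7 were lost in 7, 7, 9 and 7 of 10 such fits. Their adjusted p reached 0.0857 (without control 3), 0.106 (without HFpEF-FoxO1-sh 2), 0.0877 (without HFpEF-FoxO1-sh 2) and 0.0792 (without control 5). These calls were also lost without the filter on low counts and with the replicate number as a block. Over the fits without 1 library between 4 and 8 members were called. In all 30 of 37 members were above 0, beside 49.2% of all genes, and 11 of 37 were higher without overlap, beside 6.62%. None was lower without overlap, beside 5.53%. In the same libraries 5 of 6 macrophage markers fell, as did 3 of 8 fibroblast markers (the collagen genes Col1a1, Col1a2 and Col3a1). So did 1 of 6 endothelial markers (Cdh5), 1 of 8 ventricular muscle markers (Myl3) and the atrial marker Nppa. Of the 8 fibroblast markers 4 were above 0 (list median -2.16%). Above 0 were also 2 of 6 endothelial markers (list median -3.51%) and 2 of 8 ventricular muscle markers (list median -3.82%). The part of these markers in the subunit values was not tested.

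Core and regulatory particle were compared as groups of genes, as a description. As the mean log2 fold change of 14 core genes less that of 17 regulatory genes, the difference was 0.02 in HFpEF-scr against control, 0.01 in HFpEF-FoxO1-sh against HFpEF-scr and 0.03 in HFpEF-FoxO1-sh against control. Per library, the mean log2 CPM of the core less the control mean was 0.09 ± 0.04 (SD, n = 5) in HFpEF-FoxO1-sh and 0.01 ± 0.02 (SD, n = 4) in HFpEF-scr. For the regulatory particle the same values were 0.07 ± 0.03 (SD, n = 5) and -0.00 ± 0.04 (SD, n = 4), and the controls had an SD of 0.03 in both. Summed over genes, the core was at 1136 ± 22.9 CPM in control, 1147 ± 11.8 CPM in HFpEF-scr and 1213 ± 31.1 CPM in HFpEF-FoxO1-sh. The regulatory particle was at 1879 ± 39.4 CPM, 1889.7 ± 48.6 CPM and 1979.9 ± 39.5 CPM, in the same order. Each sum was lower in every control than in every HFpEF-FoxO1-sh library.

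Within the core, each ring has its own mean. The mean log2 CPM of the alpha ring, relative to control, was 0.01, 0.09, 0.11 and 0.07 in HFpEF-scr 1 to 4 and 0.21, 0.18, 0.14, 0.12 and 0.12 in HFpEF-FoxO1-sh 1 to 5. That of the beta ring was -0.03, -0.06, -0.04 and -0.04 in HFpEF-scr 1 to 4 and 0.04, 0.10, 0.05, 0.01 and -0.02 in HFpEF-FoxO1-sh 1 to 5. The alpha ring was above the beta ring in all 9 HFpEF libraries, and in the controls the difference ran from -0.05 to 0.04. HFpEF-scr 1, with a difference of 0.0358, was level with control 4 at 0.0357. The alpha ring mean was above all controls in every HFpEF-FoxO1-sh library and in 3 of 4 HFpEF-scr libraries. These are descriptions of the lists, with no test.

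**Figure D4:**
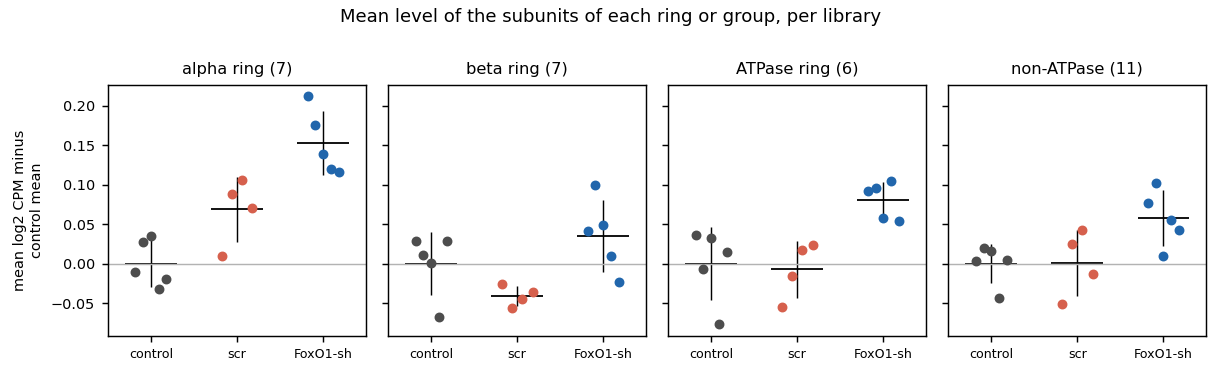
Points give, per library, the mean log2 CPM of the genes of each ring or group less the mean of the controls, with lines for the group mean and 1 SD. The alpha ring lies at 0.07 in HFpEF-scr and 0.15 in HFpEF-FoxO1-sh, and the beta ring at -0.04 and 0.04.

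The members outside the constitutive particle, which are the assembly chaperones, Psma8, Psmb11 and Psmc3ip, did not pass the test in any comparison. Psmd5, Psmd9 and Psmd10, which guide the ATPase ring together, differed in HFpEF-FoxO1-sh against control by 0.856% (interval -8.46% to 11.1%, adjusted p = 0.932), 1.33% (interval -8.19% to 11.9%, adjusted p = 0.890) and 22.4% (interval 1.53% to 47.6%, adjusted p = 0.150). Psmd9 had counts that were not whole in 7 libraries and shares 25.5% of its exon bases with another gene. Psma8, of the testis, had between 5 and 22 counts per library and was at 0.469, 0.594, 1.37, 0.606 and 1.16 CPM in controls 1 to 5, 0.774, 0.831, 0.704 and 0.354 CPM in HFpEF-scr 1 to 4 and 0.996, 1.42, 0.897, 1.06 and 1.47 CPM in HFpEF-FoxO1-sh 1 to 5. It had the largest value of all members in HFpEF-FoxO1-sh against HFpEF-scr, 73.7% (interval 5.19% to 187%, adjusted p = 0.202), on an interval that is far wider than those of the constitutive genes.

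Psmb11, of the thymus, was at 2.16, 2.30, 1.63, 2.22 and 2.32 CPM in controls 1 to 5, 1.13, 2.56, 1.73 and 2.05 CPM in HFpEF-scr 1 to 4 and 1.86, 2.24, 1.93, 1.41 and 1.93 CPM in HFpEF-FoxO1-sh 1 to 5. Its groups overlapped, it had 16 to 46 counts per library, and counts were not whole in all 14 libraries. Its differences were -12.0% (interval -35.5% to 20.1%, adjusted p = 0.649), 0.266% (interval -27.1% to 37.8%, adjusted p = 0.994) and -11.8% (interval -34.2% to 18.3%, adjusted p = 0.612). Psmc3ip had 17 to 43 counts and differed by -18.4% (interval -38.5% to 8.46%, adjusted p = 0.388), 35.2% (interval 1.81% to 79.6%, adjusted p = 0.220) and 10.4% (interval -14.6% to 42.8%, adjusted p = 0.655).

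Among genes that work around the constitutive proteasome, Nfe2l1 stood out. It encodes the membrane-bound factor that is released when proteasome activity falls short and switches on subunit genes. Its level was 789, 785, 809, 904 and 833 CPM in controls 1 to 5, 876, 1138, 1077 and 1121 CPM in HFpEF-scr 1 to 4 and 1092, 1107, 1074, 1078 and 1138 CPM in HFpEF-FoxO1-sh 1 to 5. HFpEF-scr 1, at the level of the controls, was the exception among the 9 HFpEF libraries, all others being above every control. HFpEF-scr differed from control by 27.8% (95% interval 16.4% to 40.3%, 0.35 ± 0.06 SE on the log2 scale, adjusted p = 0.00421) and HFpEF-FoxO1-sh from control by 33.2% (95% interval 21.9% to 45.6%, 0.41 ± 0.06 SE on the log2 scale, adjusted p = 3.78e-04). Both calls held without any 1 library, with adjusted p of up to 0.0172 and 0.00169. HFpEF-FoxO1-sh differed from HFpEF-scr by 4.27% (interval -5.09% to 14.5%, adjusted p = 0.652), and without HFpEF-scr 1 this turned to -0.0165 on the log2 scale. The highest value of a constitutive subunit against control was 16.2% (Psma3). Of the other 5 genes of this list, Nfe2l2 and the Nfe2l1-processing genes Ddi2, Ngly1, Sel1l and Syvn1, none was called.

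Psme4, which encodes a nuclear activator that caps the core in place of the regulatory particle, fell in HFpEF-scr. It was at 532, 463, 449, 434 and 464 CPM in controls 1 to 5, 301, 386, 406 and 427 CPM in HFpEF-scr 1 to 4 and 470.2, 414, 493, 436 and 496 CPM in HFpEF-FoxO1-sh 1 to 5. All HFpEF-scr libraries were below all controls, HFpEF-scr 1 the lowest, and the HFpEF-FoxO1-sh libraries overlapped both other groups. The difference of HFpEF-scr from control was -18.9% (95% interval -28.6% to -7.75%, -0.30 ± 0.09 SE on the log2 scale, adjusted p = 0.0470), and without HFpEF-scr 1 it was -0.21 on the log2 scale (adjusted p = 0.0768). The call was lost in 6 of 9 such fits, with the highest adjusted p of 0.0850 without control 1. HFpEF-FoxO1-sh differed from HFpEF-scr by 21.6% (interval 6.93% to 38.2%, adjusted p = 0.0782) and from control by -1.37% (interval -12.5% to 11.2%, adjusted p = 0.909).

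The immune subunits, which replace the catalytic beta subunits, and the activator PA28 (Psme1 and Psme2) form a list of 5. In HFpEF-scr 1 of 5 fell and none rose, beside 3.70% and 3.66% of all genes, with a list median of -20.2%. Psmb8, the immune counterpart of Psmb5, was at 12.3, 18.6, 14.6, 14.5 and 18.1 CPM in controls 1 to 5, 12.0, 12.3, 11.8 and 9.71 CPM in HFpEF-scr 1 to 4 and 15.8, 12.2, 12.3, 15.3 and 12.3 CPM in HFpEF-FoxO1-sh 1 to 5. HFpEF-scr libraries overlapped the lowest control only, and the difference was -26.2% (95% interval -38.7% to -11.0%, -0.44 ± 0.13 SE on the log2 scale, adjusted p = 0.0470), a call lost in 8 of 9 fits without 1 library (adjusted p up to 0.130, without HFpEF-scr 4). Psmb10, the counterpart of Psmb7, fell in HFpEF-FoxO1-sh against control, with a difference of -22.0% (95% interval -34.0% to -7.76%, -0.36 ± 0.11 SE on the log2 scale, adjusted p = 0.0489), a call lost in 8 of 10 such fits (up to 0.117, without HFpEF-FoxO1-sh 5). Immune cells also express these genes, and the summed macrophage markers given above were lowest in HFpEF-FoxO1-sh. Against HFpEF-scr, 4 of 5 genes of this list were above 0 in HFpEF-FoxO1-sh, beside 51.3% of all genes. Their median was 13.3% and none was called, while 6 of 6 macrophage markers were below 0. The part of immune cells in these values was not tested.

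**Figure D5:**
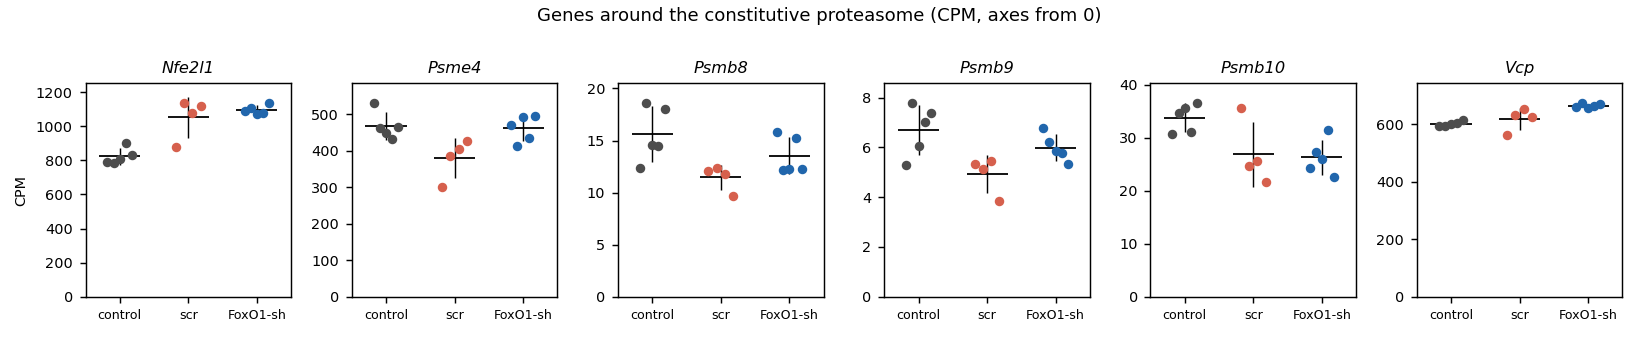
Points give CPM in every library for Nfe2l1, Psme4, the immune subunits Psmb8, Psmb9 and Psmb10, and Vcp, with lines for the group mean and 1 SD and axes from 0. Nfe2l1 is between 785 and 904 CPM in control and between 1074 and 1138 CPM in HFpEF-FoxO1-sh.

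Of the other lists, 0 of 5 core assembly factors and 0 of 6 ubiquitin and activation genes were called by edgeR in any of the 3 comparisons. At an unadjusted p under 0.05 there were 0 core assembly factors in each, and 1, 1 and 2 of the 6 ubiquitin and activation genes in the order of comparisons used here, beside 23.6%, 19.7% and 27.0% of all genes. Of 7 further genes of the regulatory particle and its partners, Sem1 (Shfm1 in the table), a small lid subunit, rose in HFpEF-FoxO1-sh against control. Its group means were 117 ± 3.99, 124 ± 4.78 and 130.1 ± 2.89 CPM (SD, n = 5, 4 and 5), and the difference was 11.1% (95% interval 5.12% to 17.4%, 0.15 ± 0.04 SE on the log2 scale, adjusted p = 0.0150). Of 10 shuttle and segregase genes Vcp, the ATPase that pulls ubiquitin-tagged proteins out of complexes, rose in the same comparison by 10.5% (95% interval 4.67% to 16.6%, 0.14 ± 0.04 SE on the log2 scale, adjusted p = 0.0177). These calls of 1 of 7 and 1 of 10 genes stand beside 6.68% of all genes that rose. All HFpEF-FoxO1-sh libraries of Vcp, at 659, 674, 658, 662 and 668 CPM, were above every control and every HFpEF-scr library. From HFpEF-scr it differed by 7.62% (interval 1.61% to 14.0%, adjusted p = 0.134), which is not called. The calls of Sem1 and Vcp against control held without any 1 library, with adjusted p of up to 0.0449 and 0.0452.

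Ubiquitin ligases of muscle deliver substrates to the proteasome. Of 10 listed, 3 rose and 1 fell in HFpEF-FoxO1-sh against control, beside 6.68% and 6.28% of all genes. Fbxo21 differed by 31.4% (interval 16.2% to 48.7%, adjusted p = 0.00597), Fbxo31 by 19.3% (interval 8.71% to 30.9%, adjusted p = 0.0152) and Nedd4 by 9.08% (interval 4.02% to 14.4%, adjusted p = 0.0184), and Trim55, a ligase of the sarcomere, by -13.7% (interval -20.9% to -5.77%, adjusted p = 0.0279). The first 3 calls held without any 1 library, and that of Trim55 was lost in 6 of 10 such fits (adjusted p up to 0.0704, without HFpEF-FoxO1-sh 1). Fbxo31 was also higher than in HFpEF-scr, by 19.6% (interval 8.35% to 32.0%, adjusted p = 0.0446). Apart from the cell type markers, it was the only gene of all these lists called in that comparison. That call was lost in 7 of 9 such fits (up to 0.112, without HFpEF-scr 1).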

How the data were processed

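RNA of 14 left ventricle libraries was sequenced. The deposited table holds expected counts per gene, which the authors made with Bowtie2 2.1.0 and RSEM 1.2.15 on mm10, per the submitters' processing notes. The annotation, filters, read layout and strand of counting are not given in the sources used here. Expected counts were rounded, genes with low counts were removed with filterByExpr, and libraries were scaled by TMM. The 3 comparisons were tested over 13588 genes with edgeR 4.0.16 (quasi-likelihood F-test, two-sided, 1 coefficient per group, all 14 libraries, R 4.3.3), with Benjamini-Hochberg adjustment over all of them and a threshold of 0.05. The SE is the log2 fold change divided by the square root of F, and intervals are 95%. CPM values are counts scaled by the TMM library size, and log2 CPM used a prior count of 2. Totals of 13.2 M to 21.2 M counts limit the precision of the genes with few counts (Psma8, Psmb11 and Psmc3ip).

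Alternatives were DESeq2 1.42.0, limma 3.58.1 (voom), DESeq2 size factors as scaling, no filter on low counts, at least 10 counts in every library, a replicate block, a fit of the compared groups alone, and leaving out each library. The scripts were tested on simulated data. Positions and shared exon bases are from GENCODE vM21, and promoter windows from RefSeq.

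The members and lists were chosen with earlier results of these data known. Values in every library are given for the catalytic subunits, for each member called in at least 1 comparison, and for the members with the highest and lowest change of each particle and comparison. Of the other listed genes, those called, Nfe2l1 and Foxo1 are named.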

Additional observations from a re-analysis of the deposited data

Results flagged for a closer look

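In 10 of 90 groups of values, 1 library lay apart from the others of its group, with a gap to its nearest neighbour above Dixon's 95% critical value. Chance gives about 1 in 20 groups tested. Among the catalytic subunits, Psmb5 was low in control 4 (80.2 CPM, next 90.4 CPM), Psmb6 was high in HFpEF-FoxO1-sh 2 (119.9 CPM, next 114 CPM) and Psmb7 was low in HFpEF-scr 1 (121 CPM, next 131 CPM). In the alpha ring, Psma5 was high in HFpEF-FoxO1-sh 2 (41.7 CPM, next 38.6 CPM). In the lid, Psmd11 was low in HFpEF-scr 4 (77.7 CPM, next 82.6 CPM) and in HFpEF-FoxO1-sh 3 (75.4 CPM, next 80.3 CPM), and Psmd7 was low in HFpEF-FoxO1-sh 3 (116 CPM, next 122 CPM). The thymus subunit Psmb11 was low in control 3 (1.63 CPM, next 2.16 CPM). Of the ligases, Fbxo21 was high in HFpEF-scr 2 (84.8 CPM, next 69.5 CPM) and Nedd4 was low in HFpEF-scr 1 (744 CPM, next 769.9 CPM).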

How the results depend on the processing

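The medians of the core and regulatory genes moved by less than the spread between libraries under every alternative. Whether a median near 0 changed sign within that spread was not assessed. The number of members called did change. Without the filter on low counts, HFpEF-scr against control had 0 members (core 0), and HFpEF-FoxO1-sh against control 5 (core 4, regulatory 1). DESeq2 called 2 members in HFpEF-scr against control (regulatory 1) and 1 in HFpEF-FoxO1-sh against HFpEF-scr (core 1). A fit of the compared groups alone gave 0 in HFpEF-scr against control (core 0). Leaving out 1 library gave 0 to 1 members in HFpEF-scr against control (core 0 to 1, regulatory 0 to 1) and 4 to 8 in HFpEF-FoxO1-sh against control (core 3 to 6, regulatory 1 to 2). The cause was not tested.

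With the replicate number as a replicate block, HFpEF-scr against control had 0 members (core 0) and HFpEF-FoxO1-sh against control 5 (core 4, regulatory 1). With this block the calls of Psmb8 and Psme4 in HFpEF-scr against control were lost. So were those of Psmb10 and Trim55 in HFpEF-FoxO1-sh against control and of Fbxo31 against HFpEF-scr. The call of Psmb8 was also lost in limma voom. The deviations of same-numbered libraries correlated at -0.194 to 0.111. The labels do not say whether such libraries share a litter or a day, and these correlations cannot decide it.

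Among single genes, 2 uncalled values reversed without HFpEF-scr 1, both in HFpEF-FoxO1-sh against HFpEF-scr, Nfe2l1 to -0.0165 and Psmb10 to 0.13 on the log2 scale. Over all fits without 1 library these ran from -0.0165 to 0.10 and from -0.12 to 0.13. A change of sign by under 1 SE in an uncalled gene was not counted as a reversal.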

Other observations

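The best known muscle ligases of atrophy, named here after their values were seen, did not pass the test. Fbxo32 (atrogin) differed by 5.82% (interval -5.65% to 18.7%, adjusted p = 0.573) in HFpEF-scr and by 16.2% (interval 4.30% to 29.5%, adjusted p = 0.0640) in HFpEF-FoxO1-sh, both against control. Trim63 (MuRF) differed by 0.848% (interval -8.97% to 11.7%, adjusted p = 0.939) and 1.70% (interval -7.66% to 12.0%, adjusted p = 0.854). Ubb, a gene that encodes ubiquitin, differed in HFpEF-FoxO1-sh against control by 11.4% (interval 3.13% to 20.3%, adjusted p = 0.0622). The enzyme that activates ubiquitin, Uba1, differed by -5.70% (interval -10.7% to -0.400%, adjusted p = 0.154).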
